A study of Mus musculus with 3 samples.

Results

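The tripartite motif (TRIM) genes of the mouse were read in the cytosolic RNA of lipid A-stimulated macrophages. Members were the gene rows that GENCODE M21 types as protein coding and whose symbol is Trim followed by a number and at most a letter from a to e, which gave 68 genes of 22028 protein-coding genes. The cells were macrophages grown from the bone marrow of C57BL/6J mice, kept for 120 min with lipid A at 100 ng/ml, and all 3 libraries carry this treatment. Lipid A is the membrane anchor of bacterial lipopolysaccharide and is sensed by the receptor TLR4. Each library was made from 1 µg of ribosomal RNA-depleted total RNA of the cytosolic fraction, with a size range of 250 to 400. The labels number the libraries as biological replicates 1, 2 and 3, give them the same donor identifier, record neither sex nor age, and do not say whether the cultures came from separate animals. SDs and p-values below therefore describe how far these libraries lie apart, which may be a technical matter. With 1 group and no untreated cells, the values are levels after stimulation and no response to lipid A can be read from them.

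TRIM proteins share an N-terminal arrangement of a RING finger, 1 or more B-box zinc fingers and a coiled coil, and differ in the module at the C-terminal end, which picks the substrate. The RING finger recruits a ubiquitin-conjugating enzyme (E2), so that most members act as ubiquitin ligases. In macrophages the family is best known for tuning the sensing of viral nucleic acids and the signalling of Toll-like receptors, and many members are induced by interferon. Others bind chromatin, microtubules or the endoplasmic reticulum, and some are used mainly in muscle, brain or germ cells.

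Levels are given in TPM, a length-scaled share of all transcripts of a library, as mean ± SD over the 3 libraries. Depth is given in expected counts, which are model estimates. The libraries held 31152786, 114031592 and 59693298 expected counts in replicates 1, 2 and 3, so replicate 2 was the deepest. The labelled cell type was checked on marker genes: 8 of 8 macrophage markers were detected, with summed levels of 4864 to 5493 TPM. None of the 27 markers of T and NK cells, B cells, neutrophils, erythroid cells, striated muscle and stroma was detected, and their summed level stayed at or below 0.77 TPM per list and library. Replicate 2 stood apart in RNA that is no member: 7SL RNA took 67.0% of its TPM against 56.9% and 57.3% in replicates 1 and 3, and the nuclear RNA Malat1 was at 178 TPM against 741 and 812 TPM. TPM has a fixed sum, so these shares enter the TPM of every gene; their part in the results below was not tested.

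Of the 68 TRIM genes, 27 were detected, which means at least 1 TPM in every library. That is 39.7% of the family, beside 37.7% of all protein-coding genes, so the share detected was close to the background. The median level over all members was 0.265 TPM, beside 0.113 TPM over all protein-coding genes, and the detected members had a median of 6.40 TPM beside 6.86 TPM for detected protein-coding genes. Summed over the family, the level was 345, 321 and 317 TPM, or 0.148 ± 0.00414% of the TPM of nuclear protein-coding genes. In such bulk RNA, fewer cells of a type and less RNA per cell cannot be told apart. The level was concentrated in few genes. Trim30c, Trim30a and Trim25 held 42.1 ± 2.47% of the summed TRIM TPM, and the 10 highest members held 76.2 ± 2.27%. By expected counts, which are not scaled by length, those 3 genes held 46.9 ± 2.18%.

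**Figure D1:**
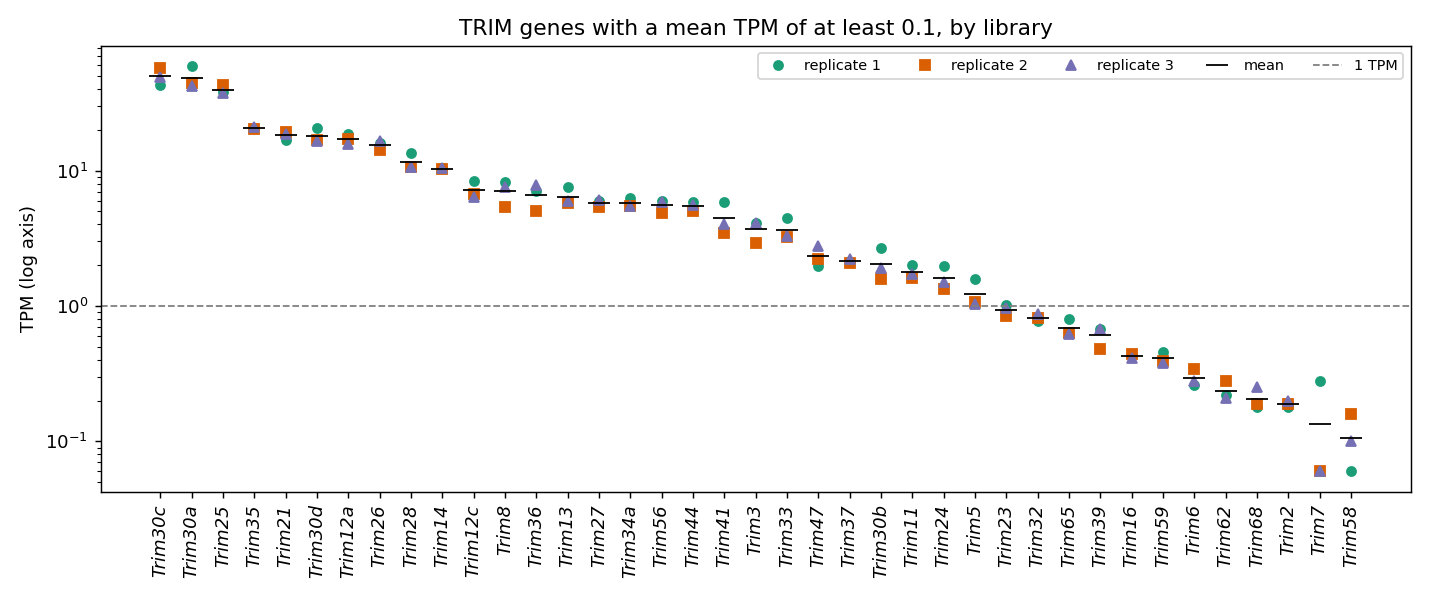
Level of each TRIM gene with a mean of at least 0.1 TPM in the 3 libraries, on a log axis, with the mean as a short line and 1 TPM as a dashed line. Trim30c, Trim30a and Trim25 lie above 30 TPM in every library, and Trim5 is the lowest member that stays above the dashed line in all 3.

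The 3 highest members stood clear of the rest. Trim30c had 43.2, 56.9 and 48.9 TPM in replicates 1, 2 and 3 (mean 49.7 ± 6.91). Trim30a, which is known to restrain signalling from Toll-like receptors by lowering the adaptors TAB2 and TAB3, had 59.0, 44.1 and 42.4 TPM (mean 48.5 ± 9.14). Trim25, a ligase of the RIG-I pathway that senses viral RNA, had 38.3, 43.0 and 37.2 TPM (mean 39.5 ± 3.07). Trim30c and Trim30a changed places between libraries, and their means differed by less than the SD of either. All 3 lay above the next member, Trim35, in every library. Among 22028 protein-coding genes they ranked at positions 739, 755 and 925 by mean TPM.

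The next 7 members had means between 10.3 and 20.7 TPM. Trim35 had 20.8, 20.2 and 21.1 TPM (mean 20.7 ± 0.421). Trim21, a cytosolic receptor for the constant part of antibodies that marks antibody-coated viruses for degradation, had 16.8, 19.4 and 18.8 TPM (mean 18.3 ± 1.33). Trim30d had 20.8, 16.8 and 16.4 TPM (mean 18.0 ± 2.42). The ranges of Trim21, Trim30d and Trim12a overlapped, and Trim30d reached Trim35 in replicate 1, so the order of these genes is not fixed by the libraries. Trim12a, a relative of the retroviral restriction factor Trim5, had 18.7, 17.2 and 15.7 TPM (mean 17.2 ± 1.5). Trim26, reported to act on the interferon regulator IRF3, had 16.1, 14.1 and 16.5 TPM (mean 15.5 ± 1.25). Below these, Trim28, the co-repressor that silences retroelements through KRAB zinc finger proteins, had 13.5, 10.7 and 10.7 TPM (mean 11.6 ± 1.61). Trim14, a mitochondrial adaptor of antiviral signalling that lacks a RING finger, was the steadiest on the TPM scale, at 10.4, 10.3 and 10.4 TPM (mean 10.3 ± 0.0794).

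A long middle group of 11 members lay between 3.66 and 7.16 TPM. Its upper part held Trim12c at 7.16 ± 1.08 TPM, Trim8, which acts on the kinase TAK1, at 7.05 ± 1.51 TPM, and Trim36, a microtubule-binding member, at 6.64 ± 1.45 TPM. Trim13, a ligase anchored in the endoplasmic reticulum, followed at 6.40 ± 1.00 TPM. Trim27 at 5.78 ± 0.376 TPM, Trim34a at 5.72 ± 0.435 TPM, Trim56 at 5.55 ± 0.581 TPM and Trim44 at 5.48 ± 0.438 TPM lay within 1 SD of each other. Trim56 acts in the sensing of cytosolic DNA, and Trim44 is another member without a RING finger. Trim41 at 4.47 ± 1.27 TPM, Trim3 at 3.71 ± 0.670 TPM and Trim33, a chromatin reader that acts on SMAD4, at 3.66 ± 0.699 TPM closed the group.

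The lowest detected members were Trim47 at 2.33 ± 0.414 TPM, Trim37 at 2.14 ± 0.0777 TPM, Trim30b at 2.05 ± 0.553 TPM, Trim11 at 1.78 ± 0.211 TPM, Trim24 at 1.60 ± 0.325 TPM and Trim5 at 1.23 ± 0.303 TPM. The order ran on across the threshold of 1 TPM without a gap. Just inside it, Trim5 had 1.58, 1.07 and 1.04 TPM. Just outside it, Trim23, which carries a GTPase module, had 1.01, 0.84 and 0.97 TPM, and Trim32, known from muscle, had 0.77, 0.82 and 0.87 TPM. Trim65, an activator of the RNA sensor MDA5, had 0.80, 0.63 and 0.62 TPM, and Trim39 had 0.68, 0.48 and 0.68 TPM. These 4 were low rather than unread, since each had at least 123 expected counts in every library.

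A single stretch of chromosome 7 held much of the TRIM TPM. Between bases 104218793 and 104507849 of chromosome 7 in mm10, a span of 289 kb, lie 10 members: Trim6, Trim34a, Trim5, Trim12a, Trim34b, Trim12c, Trim30b, Trim30c, Trim30a and Trim30d. Of these, 8 were detected, beside 39.7% of the family and 37.7% of all protein-coding genes. The block held 46.6%, 46.8% and 43.8% of the summed TRIM TPM in replicates 1, 2 and 3 (mean 45.7 ± 1.70%). The share hardly moved between libraries although Trim30a and Trim30c did. By expected counts it was 38.5 ± 1.66%. The 4 Trim30 genes alone held 36.1 ± 1.33% of the TRIM TPM. Elsewhere on chromosome 7 lie 3 more detected members, Trim21, Trim28 and Trim3.

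**Figure D2:**
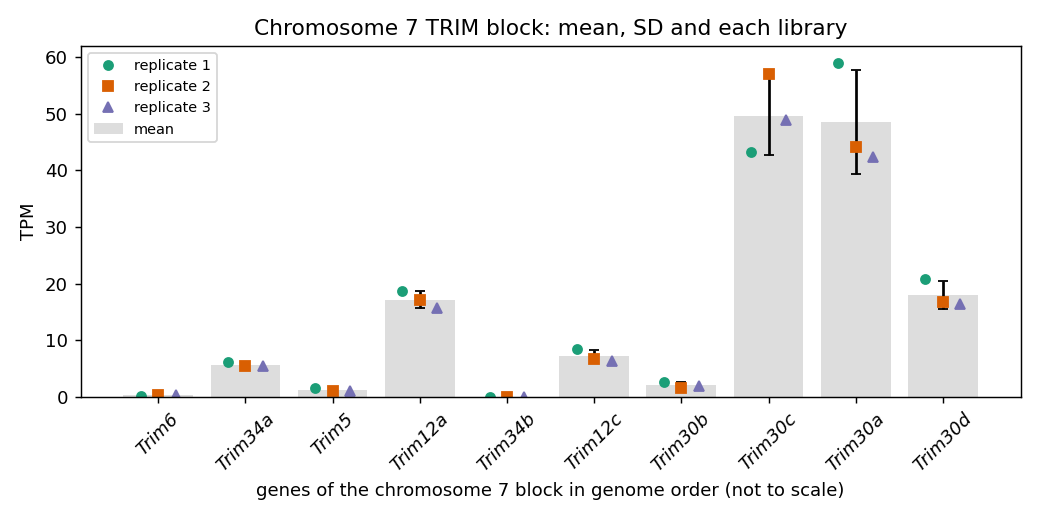
Level in TPM of the 10 TRIM genes of the chromosome 7 block in genome order, with bars for the mean, error bars for the SD and points for the 3 libraries. Trim30c and Trim30a reach means of 49.7 and 48.5 TPM, while Trim6 and Trim34b stay at 0.293 and 0.0333 TPM.

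Within the block, close relatives differed widely in level. Trim34a had 6.22, 5.43 and 5.51 TPM, while Trim34b, with a coding sequence 98.8% identical, had 0.04, 0.02 and 0.04 TPM. Trim12a stood at 17.2 TPM, Trim12c at 7.16 TPM and Trim5 at 1.23 TPM, although the aligned coding bases of these 3 are 96.4% to 97.1% identical. The coding sequence of Trim12a is shorter, at 891 bases beside 1491 in Trim5 and Trim12c, so its identity covers the aligned part only. The Trim12a level includes noncoding transcripts, and its coding transcript Trim12a-203 alone had 6.79 TPM. In expected counts Trim12a, at 1001, 3595 and 1862, lay below Trim12c, at 1657, 5387 and 2547. Such values depend on how reads common to several genes were assigned. Of all 50-base words in the leading Trim34a transcript, 61.9% also occur in a transcript of another gene, and the same holds for 38.4% in Trim5 and 34.4% in Trim12c. The levels of these 3 genes, and of Trim34b and Trim12a, whose leading transcript is noncoding, are therefore uncertain. The Trim30 genes shared far less: 0.660% of the words of Trim30c, 6.53% of Trim30a, 3.17% of Trim30b and 8.29% of Trim30d were found elsewhere, and their coding sequences are 82.3% to 90.2% identical to one another.

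Some differences between the Trim30 genes can be seen in the first coding bases, which are shown because reads of Trim30a and Trim30c can be told apart by such differences. Each line gives 90 bases of coding sequence from GENCODE M21, on the gene's strand, aligned without gaps to Trim30a, with capitals for bases that differ from Trim30a. The stretches start at coding base 1, except in Trim30c, where coding bases 4 to 93 align.
Trim30a: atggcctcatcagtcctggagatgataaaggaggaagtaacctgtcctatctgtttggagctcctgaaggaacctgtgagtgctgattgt
Trim30b: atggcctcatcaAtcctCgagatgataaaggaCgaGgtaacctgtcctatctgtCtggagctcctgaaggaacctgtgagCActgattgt
Trim30c: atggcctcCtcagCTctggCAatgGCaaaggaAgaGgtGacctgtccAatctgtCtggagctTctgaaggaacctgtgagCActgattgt
Trim30d: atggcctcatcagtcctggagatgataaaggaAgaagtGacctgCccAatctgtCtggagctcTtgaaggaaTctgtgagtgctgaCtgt
Trim30b differs from Trim30a at 7 of these bases, Trim30d at 8 and Trim30c at 15. Trim30c is thus the member of the 4 that is most distant from Trim30a in this stretch, and its mean level was close to that of Trim30a. Over all aligned coding bases the order differs: identity to Trim30a is 82.9% for Trim30c, 82.3% for Trim30b and 90.2% for Trim30d. For Trim30b this covers 606 bases only.

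The ratio of Trim30a to Trim30c was 1.37 in replicate 1, 0.774 in replicate 2 and 0.868 in replicate 3. A second quantification deposited for the same libraries, made from the reads rather than from alignments, gave 1.36, 0.762 and 0.883. Both quantifications therefore placed Trim30a above Trim30c in replicate 1 and below it in replicates 2 and 3. Trim30c had 3606, 19638 and 8265 expected counts and Trim30a had 11566, 35590 and 16649, so counting error is small beside these differences.

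The promoters of the family were searched for the core letters of the interferon-stimulated response element, GAAA and again GAAA with any 2 bases between them, on both strands. The windows are RefSeq promoters of GRCm38.p6, of 300 bases each, from 250 before to 50 after a start. Of the 53 members with a window, 9 held the letters (17.0%), beside 3.99% of 27025 genes with a window. These are Trim2, Trim5, Trim12a, Trim12c, Trim21, Trim26, Trim30a, Trim30d and Trim34a, and all but Trim2 were detected. Over the whole family 39.7% were detected, and a link between the letters and detection was not tested. The letters of a kappa B core, GGGA, any 1 base and TTTCC, also on both strands, were found in 0 of 53 members, beside 0.466% of all genes with a window. These matches are descriptions of letters and not of bound sites.

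The matching stretches of the detected members are shown because 6 of the 9 members lie in the chromosome 7 block and several of these repeat each other. Trim2, on chromosome 3, also has a match, which is not among the lines. Each line gives 30 bases on the gene's strand with the core, or its reverse complement, in capitals.
Trim30a, chr7:104465210-104465239, minus strand: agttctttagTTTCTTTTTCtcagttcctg
Trim30d, chr7:104507871-104507900, minus strand: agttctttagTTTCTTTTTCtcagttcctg
Trim30c, chr7:104400896-104400925, minus strand: agttctgtggTTCCTTTTTCtcagttccac
Trim5, chr7:104288136-104288165, minus strand: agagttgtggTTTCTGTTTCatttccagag
Trim12a, chr7:104315466-104315495, minus strand: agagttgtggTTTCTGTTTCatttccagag
Trim12c, chr7:104353359-104353388, minus strand: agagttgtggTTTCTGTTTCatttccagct
Trim34a, chr7:104244457-104244486, plus strand: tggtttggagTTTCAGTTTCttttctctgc
Trim21, chr7:102565450-102565479, minus strand: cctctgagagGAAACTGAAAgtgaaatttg
Trim26, chr17:36836976-36837005, plus strand: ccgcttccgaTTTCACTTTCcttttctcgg
Trim30a and Trim30d share the same 30 bases, and so do Trim5 and Trim12a. The Trim30c line is the best aligned stretch of its promoter and holds no match. It has 25 of 30 bases in common with Trim30a, and its differences, counted from the first base shown, are T7G, A9G, T13C, T29A and G30C. Trim30c, the member with the highest mean TPM, is therefore without these letters in its window. Trim21 and Trim26 each hold another match that overlaps the one shown. A further start of Trim30a, within the gene, has a match in the stretch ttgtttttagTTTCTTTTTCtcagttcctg.

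Of 16 members listed as interferon-induced, 13 were detected, beside 39.7% of the family and 37.7% of all protein-coding genes. The median over the 16 was 8.75 TPM, beside 0.113 TPM over all protein-coding genes. The 3 that were not detected were Trim6 at 0.293 TPM, Trim34b at 0.0333 TPM and Trim38 at 0.00333 TPM. Trim38 has been described as a brake on Toll-like receptor signalling in macrophages, and it had 0, 3 and 0 expected counts. Without untreated cells, no statement on induction in these cultures is possible.

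Members known to activate antiviral or inflammatory signalling and members known to inhibit it were both present. Of 10 activators, Trim4 matched no symbol, and of the other 9, 5 were detected (Trim25, Trim14, Trim8, Trim56 and Trim44), with a median of 5.48 TPM, and the lowest was Trim62 at 0.237 TPM. Of 8 inhibitors, 5 were detected (Trim30a, Trim26, Trim13, Trim27 and Trim11), with a median of 3.78 TPM. Beside these counts stand the 39.7% detected over the family and the 37.7% over all protein-coding genes. The lowest inhibitor was Trim40, with no count in any library. Summed over the list, activators reached 71.5, 71.0 and 69.2 TPM and inhibitors 91.0, 71.2 and 73.0 TPM, so replicate 1 had more of the inhibitors, mainly through Trim30a. Both lists share members with the interferon-induced list.

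The members were also grouped by C-terminal module, and most of these groups hold only 3 to 5 genes. The PRY-SPRY module, a binding surface for proteins, is the most frequent in the family. Of 37 members listed with it, 16 were detected, close to the 39.7% of the whole family. The median was 0.430 TPM in a range from Trim30c at 49.7 TPM to 4 genes listed at 0. Trim30b is on this list, although its longest annotated coding sequence gives only 203 residues, beside 496 in Trim30a. Whether that sequence holds the module was not checked. The chromatin readers with a PHD finger and a bromodomain were detected in 3 of 4 cases: Trim28 had 11.6 TPM, Trim33 had 3.66 TPM and Trim24 had 1.60 TPM, while Trim66 had 0.0100 TPM. Among members with NHL repeats, which bind RNA or protein, only Trim3 of 4 was detected, Trim32 and Trim2 had 0.820 and 0.190 TPM, and Trim71, a regulator of embryonic cells, had no count. Of 4 members that combine a COS box, fibronectin repeats and SPRY, and that bind microtubules, Trim36 was detected at 6.64 TPM, Trim46 and Trim9 had 0.0367 and 0.00333 TPM and Trim67 had no count. The 3 striated muscle members with a COS box and an acidic tail (Trim54, Trim55 and Trim63) had no expected count in any library. In the second quantification Trim63 had 0.0719, 0.0110 and 0.0395 TPM, while Trim54 and Trim55 stayed at 0. Of 5 members with other modules, Trim13 at 6.40 TPM and Trim37 at 2.14 TPM were detected, and Trim45 was lowest at 0.0933 TPM.

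**Figure D3:**
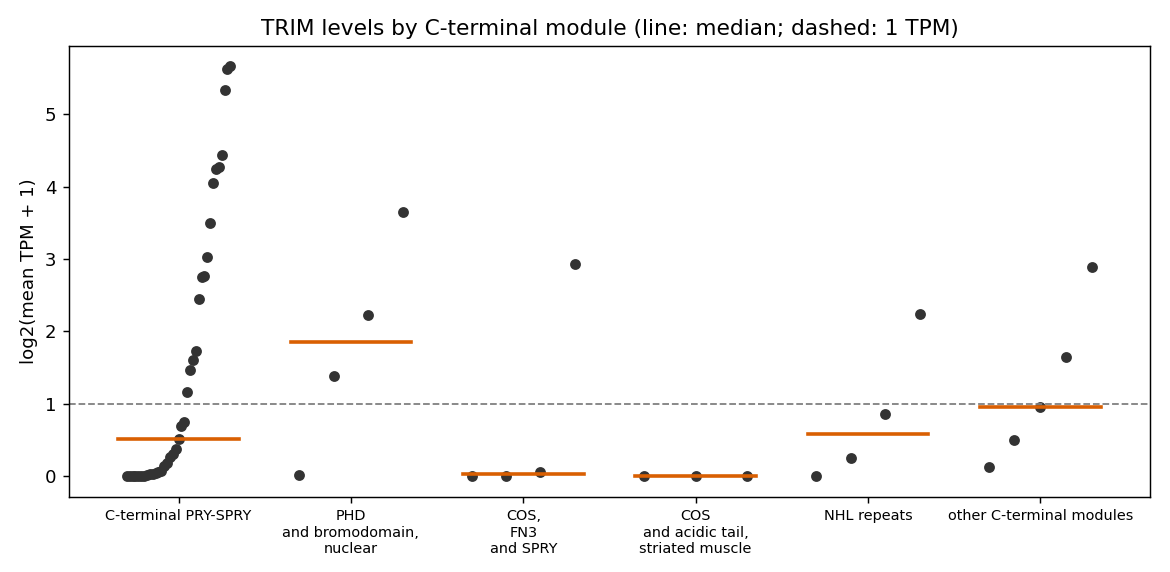
Mean level of the TRIM genes as log2(TPM + 1) by C-terminal module, with a point for each gene, a line for the median and a dashed line at 1 TPM. The PRY-SPRY group runs from 0 to the highest members, and the 3 striated muscle genes all lie at 0.

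Much of the family lay at or near 0. Of the 41 members not detected, 12 had means between 0.1 and 1 TPM and 29 were below 0.1 TPM. No expected count was found for 14 members, namely Trim10, Trim31, Trim40, Trim42, Trim43a, Trim52, Trim54, Trim55, Trim60, Trim61, Trim63, Trim67, Trim71 and Trim80. In the second quantification Trim43a, Trim52, Trim63, Trim67, Trim71 and Trim80 had means above 0, and the others stayed at 0. Trim52 was the highest of them there, at 0.113, 0.0289 and 0.112 TPM in replicates 1, 2 and 3. A count of 0 allows up to 0.0963, 0.0263 and 0.0503 CPM, which is a count scaled by the library total, in replicates 1, 2 and 3, taken as 3 counts of the total and for counting error only. Another 13 members had 1 to 30 expected counts over the 3 libraries together. Of 19 members listed as used mainly in other tissues, such as muscle, brain, gut or germ line, 0 were detected and 10 had no count. Beside this stand 39.7% detected over the family and 37.7% over all protein-coding genes. The list was chosen with earlier results of these data known, and the difference was not tested. The highest of the 19 was Trim58, an erythroid ligase, at 0.107 TPM. In these libraries the erythroid marker Hbb-bs had no count, and of the striated muscle markers Ckm was highest at 0.0200 TPM.

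A RING pattern of zinc-binding cysteines and histidine, searched in the translated longest coding sequence, was found in 54 of 68 members, in 21 of the 27 detected and in 33 of the 41 not detected. The share was therefore similar on both sides of the detection threshold. The detected members without a match were Trim14, Trim24, Trim36, Trim37, Trim41 and Trim44. Trim14 and Trim44 are known to lack a RING finger, and the spacing of the pattern may miss the others, so nothing on ligase activity is read from it.

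The spread between the libraries was tested with a Poisson dispersion test on TMM-scaled expected counts, with Benjamini-Hochberg adjustment over all genes tested. Of 41 members with at least 10 counts on average, 22 passed an adjusted p of 0.05 and so varied by more than counting error (53.7%). The share was 62.1% over all genes tested and 62% over the protein-coding genes tested, and the family's share was below these, a difference that was not tested. Among the 27 detected members 18 varied. The share over detected protein-coding genes alone was not computed, so no background stands beside that count. The smallest adjusted p-values of this test were 1.12e-176 for Trim30c, 5.62e-130 for Trim25, 1.5e-106 for Trim30a and 5.61e-73 for Trim21. The biological coefficient of variation from edgeR had a median of 0.117 over detected members and 0.114 over detected protein-coding genes. Without replicate 2 the count of varying members was 16 (39.02%, beside 37.9% of all genes tested). It was 19 without replicate 1 (45.2%, beside 45.3%) and 19 without replicate 3 (46.3%, beside 49.5%), so the family stayed near the background.

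The differences themselves were modest. The highest library exceeded the lowest by a median of 1.26 times in TPM over the detected members, beside 1.21 times over detected protein-coding genes. It was less than 1.5 times for 22 of the 27. The same was not counted over other genes, so no background stands beside that count. The 5 members with the largest SD of log2(TPM + 1) were Trim41 (0.32), Trim36 (0.29), Trim8 (0.28), Trim30b (0.26) and Trim30a (0.26). Trim41 had 5.90, 3.46 and 4.04 TPM, Trim36 had 7.07, 5.03 and 7.83 TPM, Trim8 had 8.26, 5.36 and 7.53 TPM and Trim30b had 2.66, 1.58 and 1.91 TPM. All 4 were lowest in replicate 2. In TPM, 18 of the 27 detected members (66.7%) were lowest in replicate 2, and so were 63.5% of detected protein-coding genes. After scaling by TMM, 8 of the 27 (29.6%) were lowest there, beside 24.6% of detected protein-coding genes, so this direction depends on the scale.

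On the TMM scale the order of libraries differed by gene. Trim30c had 113, 177 and 139 CPM, a 1.57-fold range, and Trim21 had 62.7, 93.2 and 75.3 CPM, a 1.49-fold range, both highest in replicate 2. Trim36 had 42.8, 35.5 and 50.3 CPM and Trim8 had 48.3, 37.1 and 47.7 CPM, both lowest in replicate 2. Trim47 had 6.03, 8.26 and 9.47 CPM, the widest range of the detected members at 1.57-fold. The detected members that did not vary beyond counting error by the dispersion test were Trim12a (adjusted p 0.38), Trim26 (0.257), Trim28 (0.296), Trim27 (0.131), Trim56 (0.516), Trim44 (0.522), Trim3 (0.0638), Trim37 (0.0521) and Trim11 (0.472).

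**Figure D4:**
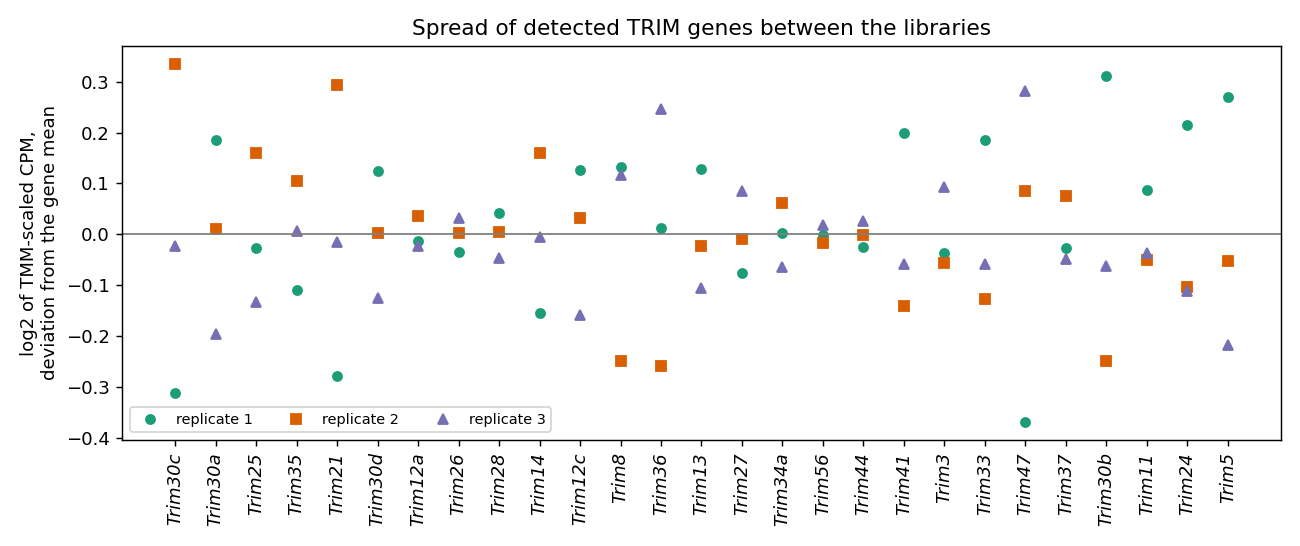
Deviation of each library from the gene's mean, in log2 of TMM-scaled CPM, for the 27 detected TRIM genes in order of level. Trim30c and Trim21 are highest in replicate 2, Trim36 and Trim8 are lowest there, and Trim26, Trim28, Trim56 and Trim44 lie close to the line at 0.

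The transcript tables give the makeup of each gene. Of the 27 detected members, 25 were led by a transcript that GENCODE types as protein coding, and the leading transcript held a median of 70.6% of the gene's TPM. In 9 members it held at least 90%, among them Trim30c with its only annotated transcript, Trim30a-201 at 98.3 ± 0.697% and Trim12c-201 at 99.5 ± 0.409%. In 6 members it held less than 50%. The second quantification named the same leading transcript in 24 of the 27. Leading transcripts were not counted over other genes, so no background stands beside these counts.

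Trim12a and Trim26 were the exceptions with a leading transcript that is not coding. Trim12a-206, a processed transcript of 562 bases, held 45.1 ± 3.74% of the Trim12a TPM, and the coding Trim12a-203 held 39.7 ± 2.60%. In expected counts, which are not scaled by length, Trim12a-206 had 165, 644 and 244 and Trim12a-203 had 483, 2072 and 920. The high TPM of Trim12a thus rests in large part on a short noncoding transcript, and in the second quantification the coding Trim12a-203 led at 42.0%. Trim26-209, also a processed transcript, held 33.3 ± 2.32% of the Trim26 TPM, but 13.4% in the second quantification, where the coding Trim26-205 led at 29.0%. These makeups therefore differ between the quantifications.

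Of the 10 highest members, Trim25 had the share of its leading transcript that moved most between libraries. Its long transcript Trim25-203 of 5590 bases held 96.9%, 79.3% and 82.8% of the gene's TPM in replicates 1, 2 and 3. The short coding transcript Trim25-202 of 1433 bases had 1.19, 8.88 and 6.38 TPM. The long form was 37.1, 34.1 and 30.8 TPM, so in TPM the excess of replicate 2 over replicate 1 in Trim25 lay in the short form. Both forms had a higher TPM in replicate 2 than in replicate 3. In expected counts the long form had 11183, 42050 and 18744, and the short form had 80.6, 2486 and 874. On the TMM scale the gene had 354, 402 and 329 CPM, and the forms were not compared on that scale. In the second quantification the short form held a larger part, 40.9 ± 8.0%, with 6.47, 10.8 and 6.25 TPM in replicates 1, 2 and 3.

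Transcripts that keep an intron made up 4.81%, 3.18% and 4.94% of the TPM of the detected members, beside 3.31%, 3.03% and 3.37% over all detected protein-coding genes. Processed transcripts, which are annotated without a coding frame, made up 5.34 ± 0.312% beside 2.25 ± 0.0537%. In 10 members the intron-keeping transcripts reached a mean of at least 0.1 TPM, and 9 of these had the lowest TPM of them in replicate 2, and 7 the lowest share. Over 3462 detected protein-coding genes chosen in the same way, replicate 2 had the lowest TPM in 76.3% and the lowest share in 71.7%, so the low values of that library were not limited to the family. In Trim21, they were 20.4%, 11.5% and 20.7% of the gene, in Trim3 25.1%, 11.6% and 27.4%, and in Trim26 12.8%, 4.32% and 12.5%. Malat1 was lowest in the same library, at 178 TPM against 741 and 812 TPM, and its part in this was not tested. By share, Trim27 with 7.28%, 7.65% and 10.9% and Trim30b with 24.1%, 27.8% and 26.2% were not lowest in replicate 2. Neither was Trim28, with 42.0%, 42.3% and 37.0%. Most of the Trim28 share was Trim28-203, of 565 bases, at 4.63, 4.26 and 3.67 TPM. That transcript had 86.5, 344 and 141 expected counts beside 914, 3167 and 1673 for the coding Trim28-201. By the second quantification Trim28-203 held 17.2 ± 5.78% of the gene.

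**Figure D5:**
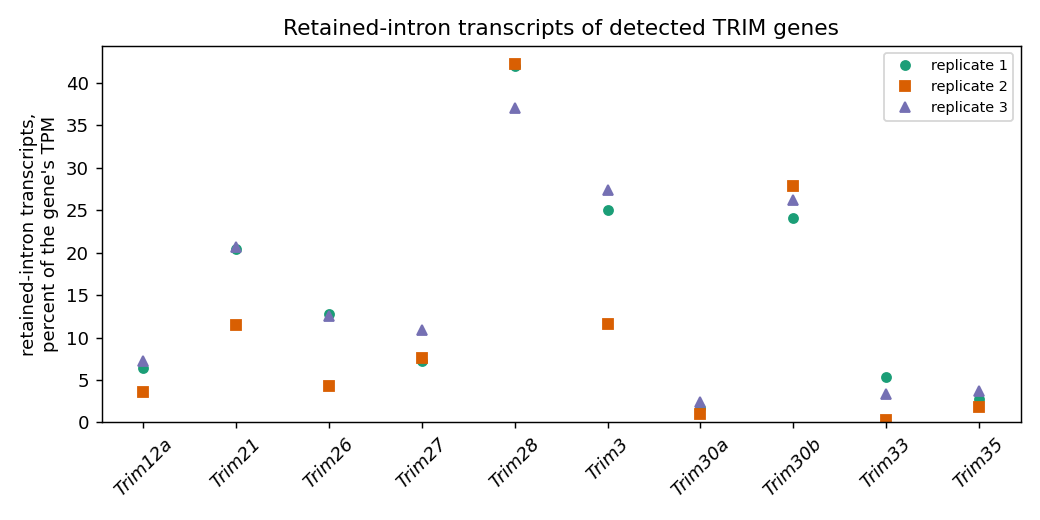
Share of intron-keeping transcripts in the TPM of each of 10 detected TRIM genes, with a point for each library. Replicate 2 lies lowest for 7 of the 10, and Trim28 stays at 37.0% to 42.3% in all libraries.

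Several members overlap another gene, and the strand setting is not given in the sources used here, so reads of both cannot be told apart with certainty. Trim41 overlaps Rack1, which encodes a protein of the small ribosomal subunit and had 97.4 TPM, on the opposite strand, and Trim13 likewise overlaps Dleu2 at 7.87 TPM. Trim14 overlaps Nans at 4.87 TPM and Trim28 overlaps Zbtb45 at 0.807 TPM, also on opposite strands. Trim47 and Trim65 overlap on the same strand, and so do Trim30d and the pseudogene Gm16464 at 3.22 TPM. Of the detected members, Trim41 has the overlapping neighbour with the highest level.

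Genes that work with TRIM ligases were read from lists. Rps27a, which encodes ubiquitin fused to a ribosomal protein, had 236 ± 32.4 TPM. Of the genes for ubiquitin-activating enzymes (E1), Uba1 had 27.0 ± 0.946 TPM and Uba6 had 6.01 ± 0.437 TPM. Of 12 E2 enzymes used by TRIM proteins, 11 were detected, beside 37.7% of all protein-coding genes, and the median was 14.9 TPM. Ube2d3 at 112 ± 9.41 TPM, Ube2d2a at 44.8 ± 4.68 TPM and Ube2n, which builds lysine-63 chains, at 39.3 ± 3.95 TPM led the list, and Ube2e2 was lowest at 0.457 ± 0.211 TPM. Every TRIM gene was thus below the leading E2 gene in mean TPM.

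Of 17 partners in antiviral sensing, 16 were detected, beside 37.7% of all protein-coding genes, and the median was 5.89 TPM. Ifih1, which encodes the RNA sensor MDA5, had 76.6 ± 6.37 TPM, the transcription factor Irf7 had 56.8 ± 11.6 TPM, and Tab2, the adaptor that Trim30a is known to lower, had 38.6 ± 4.42 TPM. Zcchc3 was lowest at 0.107 ± 0.0379 TPM. Ddx58, which encodes the Trim25 partner RIG-I, had 27.6 ± 3.70 TPM and lay below Trim25 in every library. It was named after its values were seen.

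All 11 chromatin partners of Trim24, Trim28 and Trim33 were detected, beside 37.7% of all protein-coding genes. The median of the 11 was 8.29 TPM, beside 6.86 TPM for detected protein-coding genes. Chd4 had 47.9 ± 4.21 TPM, Chd3 had 13.4 ± 1.35 TPM and Cbx3 had 10.4 ± 1.58 TPM, and Cbx5 was lowest at 2.76 ± 0.252 TPM. Beside the same 37.7%, all 9 genes of autophagy and protein degradation were detected. Their median was 22.7 TPM and they ran from Sqstm1, a ubiquitin-binding autophagy receptor, at 454 ± 47.1 TPM to Ulk1 at 3.25 ± 0.453 TPM. Gabarap had 194 ± 3.58 TPM and Vcp had 49.0 ± 4.90 TPM. Of 4 TRIM proteins that go under other symbols, Pml had 9.36 ± 1.30 TPM, Mid1 had 6.72 ± 1.52 TPM and Mefv, which encodes the inflammasome sensor pyrin, had 5.67 ± 2.06 TPM, while Mid2 was not detected at 0.0367 TPM.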

How the data were processed

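Total RNA-seq values of 3 libraries of 1 group were used. The authors deposited expected counts per gene and transcript in the column layout of RSEM, and estimated counts per transcript in that of kallisto, which is called the second quantification here. Per the file headers, the tables also hold TPM and FPKM, which are scaled by length; TPM adds up to the same total in every table. The authors deposited each transcript's percent of its gene as well, which was recomputed here. Deposited bounds of TPM credibility intervals, treated as a signal, were used in no comparison. The texts deposited with the libraries name mm10 and GENCODE M21. The aligner, tool versions and strandedness were not given in the sources used here.

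Members and gene lists were chosen with earlier results of these data known, and the counts and medians over lists are descriptions without a test. Detection meant TPM of at least 1 in every library. Expected counts were rounded and scaled by TMM in edgeR 4.0.16 under R 4.3.3. Genes averaging at least 10 counts then entered a Poisson dispersion test (chi-square, 2 degrees of freedom), with Benjamini-Hochberg adjustment over all genes tested and a threshold of 0.05. The step was tested on simulated data. The log scale is log2(TPM + 1), on which differences of low genes come out too small. Python 3.11.15 with scipy 1.17.1, pandas 2.3.3, numpy 2.4.6, Biopython 1.88 and matplotlib 3.10.9 served for the rest.

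The genes named are all members with a mean of at least 1 TPM, members between 0.5 and 2 TPM, the 5 with the largest SD, the 3 highest members not detected, and up to 3 highest and 1 lowest of every list. Members that differ over 2-fold between the quantifications were also to be named, but 25 of 27 detected members do, and so shares within the family are compared instead. Other genes were named after their values were seen, and some list members are not reported here. Promoters are RefSeq windows of GRCm38.p6, which 53 of 68 members have. The RING pattern was planned for RefSeq proteins, which were not used here, and was searched in translated GENCODE M21 coding sequences. Alternatives were other thresholds and pseudocounts, FPKM, the second quantification, DESeq2 1.42.0 size factors, total counts, no filter, rescaled TPM and leaving out each library.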

Additional observations from a re-analysis of the deposited data

How the results depend on the processing

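The count of 27 detected members ranged from 22 to 30 over thresholds of 0.5 and 2 TPM, FPKM and the second quantification, and stayed at 27 without any 1 library. It was 30 at 0.5 TPM and 22 at 2 TPM, beside 42.2% and 31.5% of all protein-coding genes. By FPKM it was 30, beside 41.9%, and in the second quantification 22, beside 27.7%. The median level of 0.265 TPM was 0.133 TPM in the second quantification and 6.40 TPM over members with at least 1 TPM, and 0.243 to 0.278 TPM leaving out 1 library. The share of the 3 highest members was 46.9% by expected counts, and 40.6% to 42.8% leaving out 1 library. Varying members numbered 16 to 19 leaving out 1 library, which uses fewer samples, and 23 to 26 with DESeq2 size factors, total counts or no filter. Their share passed that of all genes tested without replicate 2 (39.02% beside 37.9%) and with no filter (48.1% beside 43.4%), and was below it otherwise. Of the detected members, 9 varied in every setting (Trim21, Trim25, Trim30a, Trim30b, Trim30c, Trim30d, Trim35, Trim36 and Trim47), 5 in none, and 13 changed. The same was not counted over other genes, so these counts have no background. The members led by a coding transcript numbered 25, and 27 in the second quantification, where Trim12a and Trim26 switched to a coding one. There, member levels were a median of 0.404 times the main values, as for all detected protein-coding genes (0.392), and shares within the family stayed within 1.25 times for 25 of 27, but not for Trim30b (1.91 times) and Trim28 (0.753 times). Depth limits members with few counts, and intervals cover counting error only. No paired analysis was possible because there is 1 group.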
